A study of Dreissena polymorpha with 11 samples.

Results

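The zebra mussel array examined here carries 437 sequences whose identifiers begin with AM, and 267 of them (61.1%) had a signal at least 4 log2 units higher on the second male gonad array than on the first. These 267 sequences, measured by 728 of the 13654 probes on the array, are described below. The array carries 3541 sequences in all, among them 170 other AM sequences. The value of a sequence, called its relative log2 signal, is the median over its probes of log2 processed signal minus the array's median over 1325 bright probes of the EY identifier series, each above a signal of 1000 on 10 arrays. A value of 0 therefore means a sequence as bright as those EY probes.

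Because members were picked by the male gonad difference, their values on the 2 male gonad arrays are given as a description and support nothing. The difference ranged from 4.002 to 13.65, with a median of 6.82 and quartiles of 6.10 and 7.32. Just inside the limit were AM229748 at 4.002, AM230030 at 4.003 and AM229761 at 4.02. Just outside it were AM230211 at 3.99, AM230094 at 3.95 and AM229799 at 3.92. Of all 3541 sequences, 284 (8.02%) passed the same limit, and the 17 that were not AM sequences were 11 EY, 3 AJ and 3 AF sequences.

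Dreissena polymorpha, the zebra mussel, is a freshwater bivalve. Its gills move water, take up oxygen and collect food particles, its digestive gland digests and stores nutrients, and its gonads release eggs or sperm into the water, where larvae develop. The study asked how gene expression differs between these tissues and larvae in animals that received no treatment. Total RNA was hybridised with 1 dye, Cy3, to 11 arrays. They held male gonad, gill, half-body samples, digestive gland and larvae at 24 h after fertilisation, with 2 arrays each, and female gonad with 1 array analysed here. The labels give no strain, genotype or adult age, and do not say whether animals were pooled or whether samples of a tissue came from separate animals, so spreads between arrays may be technical. The gender label makes array 1 female and array 2 male for half-body, digestive gland and gill samples, and both male gonad arrays male. The source label, however, has female for each gill and digestive gland array. Starting RNA was 500 ng for tissues and 200 ng for larvae.

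No sequence name was found among 51549 genes in RefSeq's annotation of the UMN_Dpol_1.0 assembly, so the members carry no gene names or known functions here, and the labelled tissues could not be checked against marker genes. Numbers of database identifiers are usually given in a run to entries submitted together, so neighbouring numbers often share a source library. The arrays lay on 3 slides. Array 1 of male gonad, digestive gland, half-body samples and larvae shared slide 1. Array 2 of these tissues shared slide 2 with gill 2 and female gonad 1, and gill 1 was alone on slide 3. The scanner software called between 4357 and 5631 probes well above background on 10 arrays, and 106 probes, with 1 member detected, on larvae 1. Larvae 1 is left out of all values below.

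The members were dim on male gonad 1 and bright on male gonad 2. Their median relative log2 signal was -10.88 on male gonad 1 and -4.01 on male gonad 2, which are processed signals of 14.3 and 2599. All 267 were detected on male gonad 2 and 152 on male gonad 1, where a sequence counts as detected if a share of at least 0.5 of its probes is well above background. Negative control spots, which show the level of an array without target, had medians of -13.32 and -13.86 on these arrays.

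Digestive gland, which took no part in the choice of members, had the same kind of split. The median of the members was -9.85 on digestive gland 1, with 200 detected, and -3.999 on digestive gland 2, with 246 detected. In processed signal these medians were 25.3 and 2678. Digestive gland 2 and male gonad 2 were thus the bright arrays of the set, and each lay on slide 2.

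The other arrays lay between these levels or below them. Half-body arrays were intermediate, with medians of -7.96 on half-body 1 and -6.43 on half-body 2 and with 222 and 255 members detected. Female gonad 1, also on slide 2, had a median of -10.22 with 192 detected. Gill and larvae were lowest. Their medians were -12.21 on gill 1, -11.56 on gill 2 and -11.98 on larvae 2, close to the negative control medians of -12.33, -12.19 and -12.12. On these 3 arrays 33, 44 and 20 members were detected. Of the 267 members, 140 had their highest value of the 10 arrays on digestive gland 2 and 122 on male gonad 2, and the other 5 on a half-body array. In bulk tissue, fewer cells of a type and less RNA per cell cannot be told apart.

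**Figure D1:**
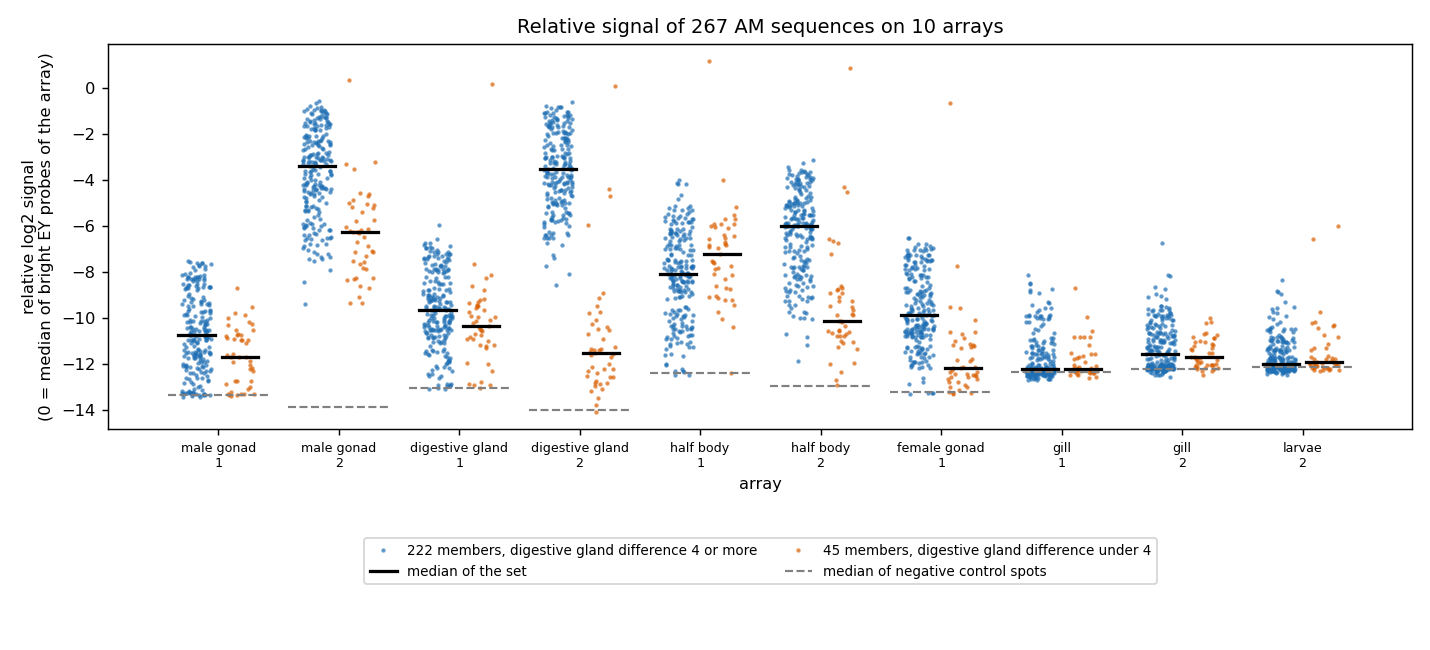
Relative log2 signal of each member (points) on 10 arrays, with the median of each set (black bars) and of the negative control spots (dashed lines). Blue points are the 222 members whose digestive gland difference was 4 or more and orange points the other 45. Both sets are raised on male gonad 2, the blue set is raised on digestive gland 2, where the orange median is -11.51, and both lie near the negative controls on gill and larvae.

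Within digestive gland, 222 of the 267 members (83.1%) were higher on array 2 by 4 log2 units or more, against 236 of all 3541 sequences (6.66%). The members made up 94.1% of those 236 sequences. Among the 3274 sequences that are not members, 14 (0.428%) passed the same difference, and 4 of these were AM sequences. With normexp, a model-based background correction that lifts dim signals, 158 sequences met the rule. Of the 267, 140 then passed 4 in digestive gland, against 144 of all 3541 sequences (4.07%). With 1 array a side there is no replicate check of this difference. In digestive gland the gender label and the slide run with the array number, so label, slide and individual sample cannot be told apart. In male gonad both arrays are labelled male and slide runs with the array number. Spike-in control probes (E1A), whose target is added in known amount, differed between digestive gland 2 and 1 by -0.52 to -0.07, and between male gonad 2 and 1 by -0.11 to 0.75.

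The digestive gland differences fell into separate groups. Of the 267 members, 185 lay between 5 and 7 log2 units, 39 lay under 1, and 6 lay from 1 to 4. The 6 in between were AM230235 at 3.71, AM230400 at 3.55, AM230206 at 3.53, AM229761 at 3.26, AM230179 at 1.40 and AM229748 at 1.21, all but AM229748 and AM229761 named after their values were seen. The split into 222 members past 4 and 45 under 4 was also made after the values were seen, and the differences between the 2 sets are given as descriptions.

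**Figure D2:**
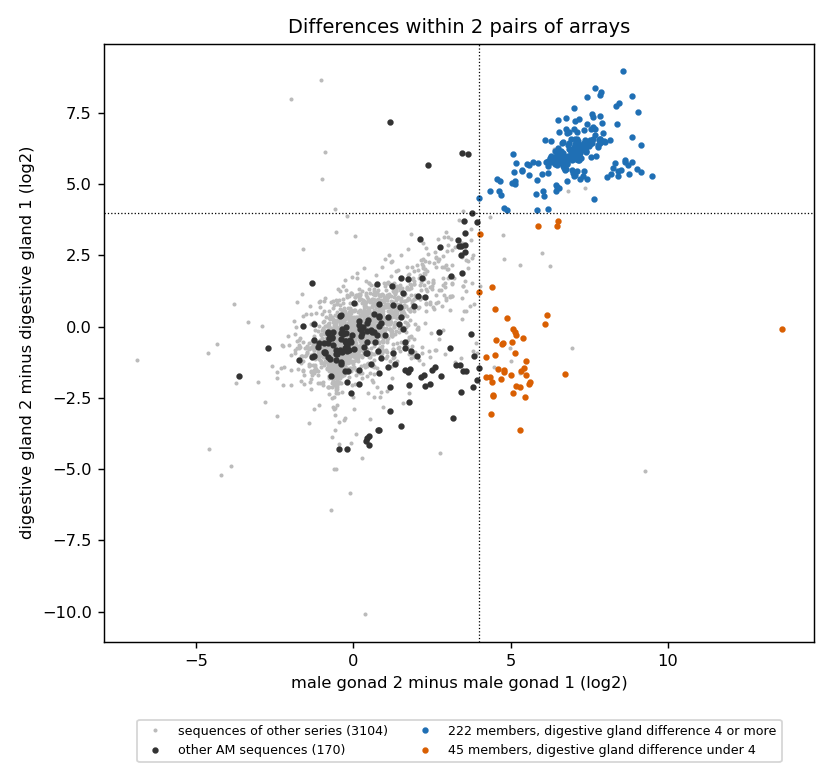
Difference between the arrays of male gonad (x axis, log2) and of digestive gland (y axis, log2) for every sequence. Dotted lines mark differences of 4. The 222 blue members form a cloud near 6.97 on the x axis and 5.98 on the y axis, the 45 orange members lie at or below 3.71 on the y axis, and most of the 3104 grey sequences of other series lie near 0.

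The 222 members past 4 had almost the same level on digestive gland 2 as on male gonad 2. Their medians were -3.53 and -3.38, and sequence by sequence the difference had a median of 0.11 with quartiles of -0.07 and 0.37. The rule and the split chose these members as higher on array 2 of both tissues, so this likeness is a description. Across the 45 members under 4, the same difference had a median of -4.98. For the 222, digestive gland 1 and female gonad 1 also resembled each other, while male gonad 1 lay lower. The medians were -10.74 on male gonad 1, -9.64 on digestive gland 1 and -9.86 on female gonad 1. Female gonad 1 differed from digestive gland 1 by a median of 0.05 with quartiles of -0.21 and 0.22. Digestive gland 1 exceeded male gonad 1 in 217 of the 222, with a median difference of 0.96 (quartiles 0.75 and 1.40). Relative to male gonad 2, half-body 2, with a median of -5.99, differed by -2.77 (quartiles -2.97 and -2.43). Half-body 1, with a median of -8.09, differed by -4.58. The quartiles of these differences lay closer together than those of the levels on male gonad 2, which were -5.08 and -2.16. Those levels ran in full from -9.36 to -0.55. The differences from male gonad 2 ran in full from -5.07 to -0.16 for half-body 2 and from -6.45 to -1.62 for half-body 1. On digestive gland 1, 53 of the 222 were not detected, so the size of their difference was not measured. With those values set to the lowest detected value on that array, -10.94, a floor added after the data were seen, 217 of the 222 still reached 4, against 228 of all 3541 sequences (6.44%).

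The 45 members under 4 had a different order of arrays. They were dimmer than the 222 on male gonad 2, with a median of -6.27, and had a median of -11.51 on digestive gland 2, where 24 of the 45 were detected. Their second brightest array was half-body 1, at -7.22, a median of -0.71 from male gonad 2. Half-body 2 had a median of -10.10, digestive gland 1 -10.31, male gonad 1 -11.66 and female gonad 1 -12.18. For most of them the signal was thus raised on 1 male gonad array and 1 half-body array that lay on different slides.

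How alike the members were is described on the 6 arrays that entered neither the rule nor the split, namely gill, half-body, female gonad and larvae 2, by the Pearson correlation of each member with the median profile of its own set. Among the 222, the median correlation was 0.973 and 193 were above 0.9. Among 44 of the 45, leaving out AM230159, which lacks a gill 2 value, the median was 0.969 and 35 were above 0.9. With the profile of the other set, the median was 0.643 for the 222, with 0 above 0.9, and 0.659 for the 44, with 4 above 0.9. Most members were not detected on gill or larvae 2, so part of this likeness is shared low signal there. Of the 170 other AM sequences, 7 had a correlation above 0.9 with the profile of the 222 and 8 with that of the 45. Each member is part of the median it is set against, and all points come from the same arrays. Across the 222 members, levels correlated at 0.958 for digestive gland 1 with female gonad 1, at 0.953 for male gonad 2 with digestive gland 2 and at 0.949 within the half-body pair, while larvae 2, where few were detected, correlated with half-body 2 at 0.16. These correlations are across sequences within shared arrays and depend on how bright each probe is.

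The half-body pair divided the members by the same 2 sets. Half-body 2 was higher than half-body 1 by 1 log2 unit or more in 213 of 267 members, against 537 of 3541 sequences (15.2%). It was lower by 1 or more in 38 members, against 274 of all sequences (7.74%). Of the 222 members, 220 were higher on half-body 2, by a median of 1.90 (quartiles 1.502 and 2.28). The exceptions were AM229780, with values of -4.18 and -4.19, and AM230001, with -3.99 and -5.13. Of the 45 members, 40 were higher on half-body 1, and the set's median difference was -2.92 (quartiles -3.23 and -1.67). The 5 that went the other way were AM230149, AM230206, AM230235, AM230275 and AM230400. The E1A spike-in probes were 2.23 to 2.80 log2 units higher on half-body 2 than on half-body 1, more than the median of the 222 members and opposite in sign to that of the 45. The part of this shift in the members' differences was not tested. A difference of 4 or more was reached by 1 member (0.375%), against 9 of all 3541 sequences (0.254%). That member was AM230039, singled out for this value, with -12.31 on half-body 1 and -8.29 on half-body 2. Its half-body 1 value lay near the negative control median of -12.38 on that array.

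In the gill pair, where most members were not detected, gill 2 exceeded gill 1 by a median of 0.27 (quartiles 0.11 and 0.92), and by 1 or more in 57 of 267 members against 325 of all sequences (9.18%). The median was 0.98 with normexp and turned to -2.17 in the deposited table, whose gill 1 column correlated with its own scanner values at 0.578. Spike-in probes differed by 0.15 to 0.75 in this pair. A difference of 4 or more was reached by 2 members (0.749%), against 15 of all sequences (0.424%). These 2, named for their size, were AM229931, at -12.48 on gill 1 and -6.71 on gill 2, and AM229793, at -12.27 and -8.11. Each of them is measured by 1 probe.

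Members were not spread evenly over the identifier numbers. Taken in blocks of 100 numbers, they made up 39 of the 48 AM sequences from 229723 to 229799, 62 of 64 from 229800 to 229892, and 69 of 73 from 229901 to 229999. From 230000 to 230099 they were 46 of 77. The share then fell, with 27 of 65 from 230100 to 230195, 7 of 35 from 230200 to 230292, 13 of 44 from 230300 to 230394 and 4 of 16 from 230400 to 230448. None of the 15 AM sequences numbered 236465 and above was a member. The first 3 blocks held 167 of the 222 members past 4 in digestive gland and 3 of the 45 under 4. The block from 230100 held 6 of the 222 and 21 of the 45. The identifier number was no part of the rule or of the digestive gland difference, and the blocks were compared by these counts alone, without a test.

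**Figure D3:**
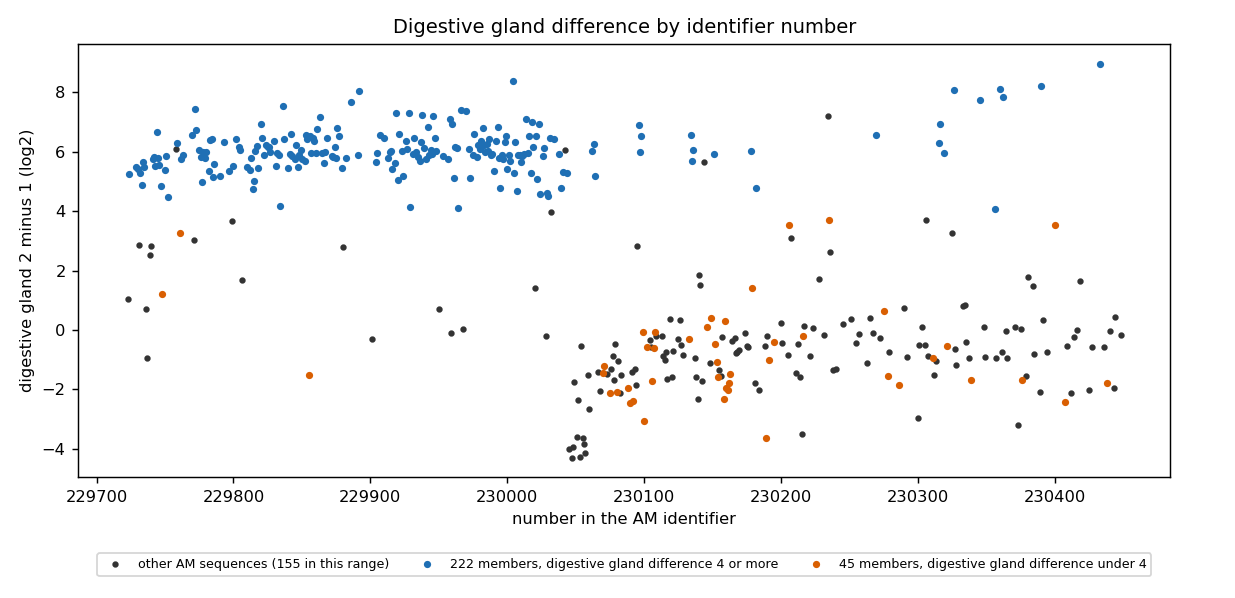
Digestive gland 2 minus digestive gland 1 (log2) against the number in the AM identifier, for members and for the 155 other AM sequences numbered up to 230448. Below number 230000 lie 167 of the 222 blue members, between 4.10 and 8.04 on the y axis, and 3 of the 45 orange members.

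Members were covered by fewer probes than other sequences. They had a mean of 2.73 probes each, and 41.6% had 1 or 2. The other AM sequences had a mean of 3.89 and 8.82%, and EY sequences a mean of 3.94 and 11.8%. Among the 222 members past 4 in digestive gland, 56 were measured by 1 probe. Of 584 probes of the 222 members, 549 had a digestive gland difference of 4 or more, a count that the split itself largely fixes. On the half-body pair, used neither by the rule nor by the split, the SD between the probes of a member had a median of 0.45 log2 units in the 222 and 0.45 in the 45.

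The brightest members over the 8 arrays, after AM230099, had nearly one profile. AM229961 had -7.66 and -0.88 on the male gonad arrays, -5.96 and -0.84 on the digestive gland arrays, and -4.17 and -3.70 on the half-body arrays. On female gonad 1 it had -6.50, on gill -8.13 and -8.63, and on larvae 2 -12.09. AM229865 had -7.53 and -0.55 on male gonad, -6.55 and -0.61 on digestive gland, -5.14 and -3.14 on half-body arrays and -6.78 on female gonad 1. Its gill values were -10.94 and -9.88, and larvae 2 gave -12.39. Both sequences are measured by 1 probe, and both show the bright level on digestive gland 2 and male gonad 2 and no other array. AM229980, with 3 probes, also had its highest values on male gonad 2 (-0.93) and digestive gland 2 (-0.97), and was detected on all 10 arrays. Unlike the other two it was higher on larvae 2, at -8.35, than on gill, at -9.41 and -8.95. The next 6 by median, AM229882, AM230151, AM229996, AM230002, AM229915 and AM229875, had digestive gland differences between 5.69 and 6.01.

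**Figure D4:**
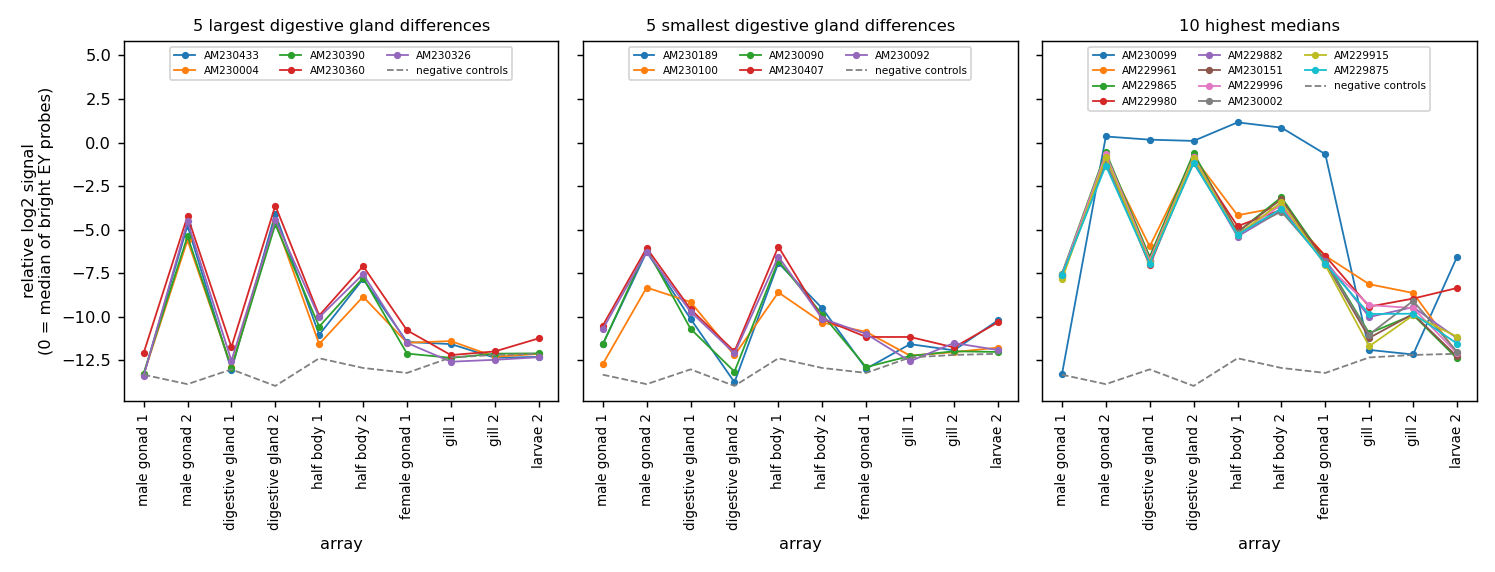
Relative log2 signal on 10 arrays of the 5 members with the largest and the 5 with the smallest digestive gland difference and of the 10 members with the highest median over 8 arrays. Lines join values of 1 sequence and imply no order of arrays. In the left panel male gonad 2 and digestive gland 2 are the peaks, in the middle panel male gonad 2 and half-body 1, and in the right panel AM230099 departs from the 9 others.

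The largest digestive gland differences belonged to members near background on the dim array. AM230433 had -13.05 on digestive gland 1, not detected, and -4.08 on digestive gland 2. On half-body arrays it had -11.03 and -7.82, and on female gonad 1 -11.44. The others were AM230004, at -12.90 and -4.52, AM230390, at -12.93 and -4.70, AM230360, at -11.74 and -3.62, and AM230326, at -12.52 and -4.44. None of the 5 was detected on digestive gland 1, so their sizes have no measured order, and against the lowest detected value on that array they were at least 116-fold, 86.0-fold, 75.9-fold, 161-fold and 90.9-fold higher on digestive gland 2. Of these 5, all but AM230004 have numbers above 230300, outside the densest blocks. On gill 1, gill 2 and larvae 2 they were not detected either.

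At the other end, AM230189 had -10.11 on digestive gland 1 and -13.75 on digestive gland 2, a difference of -3.64. Its half-body values were -6.91 and -9.51, and its male gonad values -11.57 and -6.27. AM230407 had -9.56 and -11.98 on digestive gland, -5.97 and -10.12 on half-body arrays and -10.50 and -6.05 on male gonad. The other 3 were AM230100 at -3.06, AM230090 at -2.46 and AM230092 at -2.39. None of the 5 was detected on digestive gland 2, and AM230090 was not detected on digestive gland 1 either. Negative controls had medians of -13.01 on digestive gland 1 and -13.96 on digestive gland 2. The sizes of these 5 differences were therefore not measured and have no measured order. All 5 were higher on half-body 1 than on half-body 2, with differences of array 2 minus array 1 between -4.15 and -1.73.

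AM230099, with 4 probes, had the largest male gonad difference of all members and fitted neither set. It had -13.31 on male gonad 1, within the negative controls, and 0.34 on male gonad 2. In the other tissues with signal it did not swing. Digestive gland gave 0.16 and 0.09, half-body arrays 1.15 and 0.85 and female gonad 1 -0.67. Gill gave -11.90 and -12.16, not detected on either array, and larvae 2 gave -6.56. All 4 probes were detected on the same 7 arrays and on neither gill array nor male gonad 1. On male gonad 1 they had values between -13.45 and -13.20.

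Some members had signal on gill or larvae, where most were not detected. On gill, the highest means were those of AM229961 at -8.38, AM229780 at -8.47 and AM229826 at -9.17. On larvae 2, the highest values were those of AM230275 at -6.00, AM230099 at -6.56 and AM229980 at -8.35. AM230275, with 5 probes, was higher on larvae 2 than on either digestive gland array, where it had -10.71 and -10.08. The dimmest members by median were AM230159, AM230030, AM230438, AM229748 and AM229877. Of these, AM229748 counted as detected on male gonad 2 alone, although its 5 probes disagreed, with digestive gland differences from -0.93 to 5.84. AM230159 and AM230438 were detected on 2 arrays each.

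The rule's contrast lies between arrays that are both labelled male. In the tissues the rule had not used, array 2 minus array 1 is also male label minus female label, and it was tested over the gill, digestive gland and half-body pairs, with tissue as a block. limma called 0 of 1532 sequences (0%) at an adjusted p below 0.05, and so 0 of the 261 members tested, with a smallest adjusted p of 0.637 among members. At an unadjusted p below 0.05 there were 41 members, against 77 of all sequences (5.03%). The members' median difference was 2.70 with a median SE of 1.195, higher in the male label for 227 of 261, against a median of 0.16 over all sequences tested. Without digestive gland 1 that median was 1.11, and without digestive gland 2 it was 1.13. Of the 267 members, 5 did not pass the filter on dim sequences, which asks for detection on at least 2 arrays of a fit, and AM230159 lacked a value on gill 2.

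Tissues were compared with limma on 8 arrays, leaving out male gonad because the rule had used it, and larvae 1. Female gonad and larvae then have 1 array each and are assumed to vary like the others. All comparisons with gill share the gill arrays. Members had both half-body arrays above both gill arrays in 250 of 267 cases, against 543 of 3541 sequences (15.3%), and both digestive gland arrays above both gill arrays in 206 cases, against 422 sequences (11.9%). Most members had a large difference from gill that was not called. Half-body minus gill had a median of 4.44 over the 261 members tested, positive in all 261, against -0.07 over all sequences tested, and digestive gland minus gill had a median of 4.82, against -0.19. With normexp the medians were 1.72, positive in 252, and 2.40, and in the deposited table they were 2.45, positive in 218 of 258, and 2.66. Digestive gland minus gill was 7.89 without digestive gland 1 and 2.13 without digestive gland 2. Since 211 of the 267 members were detected on neither gill array, the sizes of these differences were not measured for most members. The median SE of a member was 2.06, against 0.64 over all sequences tested, and it fell to 0.88 in half-body minus gill without the digestive gland arrays.

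In digestive gland minus gill, limma called 1 member, against 33 of 1572 sequences (2.1%), and 80 members had an unadjusted p below 0.05, against 256 sequences (16.3%). In half-body minus gill it called 1 member, against 19 sequences (1.21%), with 62 members at an unadjusted p below 0.05 against 282 sequences (17.9%). Female gonad minus gill gave 1 member, against 14 sequences (0.891%), and larvae minus gill 1 member, against 13 sequences (0.827%), with median member differences of 1.74 and 0.04. Half-body minus digestive gland gave 0 calls (0%), with 3 members at an unadjusted p below 0.05 against 87 sequences (5.53%), and a median of -0.54. That median averages unlike arrays. It was -3.57 without digestive gland 1, 2.41 without digestive gland 2, 0.38 without half-body 1 and -1.43 without half-body 2. Half-body minus female gonad also gave 0 calls (0%), with 12 members at an unadjusted p below 0.05 against 73 sequences (4.64%), and a median of 2.52.

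The called member was AM230099 each time. It was at least 1368-fold higher in digestive gland than in gill (limma adjusted p = 0.0018), with a log2 difference of 12.15 ± 0.37 (SE) and means of 0.13 and -12.03. In half-body samples it was at least 2513-fold higher than in gill (limma adjusted p = 0.00131), in female gonad at least 788-fold (limma adjusted p = 0.0063) and in larvae 2 at least 13.2-fold (limma adjusted p = 0.0327). Female gonad and larvae have 1 array here, so these last p-values rest on the spread of other tissues, and AM230099 passed the filter through tissues other than gill. These bounds set the brighter mean against the higher of the sequence's own gill value and the lowest detected value on each gill array. The call was lost when male gonad was added to the fit, where the range of AM230099 on male gonad 1 and 2 enters the spread. It was also lost with the slide as a block (limma adjusted p of 0.146 to 0.402 over the comparisons), and in digestive gland minus gill with the replicate number as a block (limma adjusted p = 0.110). With either block, 0 of all sequences tested were called. Over the 22 alternatives run for digestive gland minus gill, the limma adjusted p of AM230099 ranged from 0.000217 to 0.998, and the call was lost under 6 of them. It was lost under 6 of 22 for half-body samples, 7 of 21 for female gonad and 11 of 21 for larvae.

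Counts of called members depended on the digestive gland arrays. With digestive gland 1 left out, digestive gland 2 minus gill called 215 members, all higher, against 285 of 1557 sequences (18.3%). Digestive gland is then 1 array, assumed to vary like the other groups, and most members entered the fit through tissues other than gill. With detection asked for on every array, 8 members were tested and 0 called on all 8 arrays, against 10 of 865 sequences. With digestive gland 2 left out, digestive gland 1 minus gill had a median of 2.13 over the members tested. For half-body minus gill, leaving out 1 array at a time called 0 to 229 of all sequences. Leaving out digestive gland 1 or 2 gave 137 and 146 called members, each against at most 229 of all sequences. With both left out, a fit added after seeing the data, 148 members were called, all higher in half-body samples, against 231 of 1477 sequences (15.6%). Of those 148, 144 belonged to the 222 members past 4 in digestive gland. Only 228 of the 267 members passed the filter in that fit, and 173 of these 228 were detected on neither gill array, so they entered it through tissues other than gill. The called differences ran from 3.07 to 13.03 log2 units with a median of 5.12. After AM230099 the largest were AM229854, at -12.00 and -10.92 on gill and -5.78 and -3.62 on half-body arrays (limma adjusted p = 0.0288), AM230006 by 6.75 and AM229775 by 6.73, named by their rank in that fit.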

How the data were processed

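Intensity values (processed signal, background-subtracted within each array) were read from the deposited scanner files, made with Agilent Feature Extraction 10.5.1.1 per the file headers. The background call used is the software's own per the file headers. A deposited table of log2 values, whose scale and centring are not given in the sources used here, served as an alternative only; its columns correlated with the scanner values at 0.984 to 0.991, but at 0.274 for larvae 1 and 0.578 for gill 1. Control spots and spots flagged as outliers were left out (15208 spots for 13654 probes), log2 signals were set to the bright EY probes, and sequences took the median over probes. Their number of arrays limits the precision. Sequences entered a fit if a share of at least 0.5 of their probes was well above background on at least 2 of its arrays. limma 3.58.1 in R 4.3.3 (lmFit, eBayes, Benjamini-Hochberg over all sequences tested) was run on simulated data first. The simulation gave every sequence the same spread. It therefore does not show how the fits perform for members, whose median SE was 2.06 against 0.64 over all sequences in digestive gland minus gill. For normexp (offset 50) the median signal stood in for the mean signal, which the files do not hold.

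Groups came from the labels, and half-body arrays, both numbered 1 there, are numbered in sample order. Members and lists were chosen with earlier results of these data known. Named sequences are the 10 members with the highest and 5 with the lowest median over 8 arrays, 3 on each side of the limit, 5 with the largest and 5 with the smallest digestive gland difference, 3 highest on gill and on larvae 2, and up to 3 called members each way in each comparison. Alternatives covered scaling, background, filter, source of values, probe summary, variance prior, threshold, arrays in the fit, slide and replicate blocks.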

Additional observations from a re-analysis of the deposited data

How the results depend on the processing

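The number of members was 268 with each array's 75th percentile over the 3075 probes detected on all 10 arrays, 199 with the percentile over all probes, 201 with quantile normalization, 158 with normexp, 221 in the deposited table, 263 with the mean over probes, 267 with outlier spots kept, and 293 and 239 at limits of 3 and 5. Among the members drawn anew under each of these scalings and sources, the share past 4 in digestive gland lay between 82.8% and 88.9%. Over all sequences that share lay between 4.07% and 6.69%. Of the 267 members, 140 passed 4 in digestive gland with normexp, against 144 of all sequences (4.07%). The count past 4 in half-body samples, 1, became 0 with the percentile over all probes, quantile normalization and normexp, and that in gill, 2, became 0 with normexp and 25 in the deposited table. The percentile over all probes moved the median difference of all sequences from -0.41 to -2.52 in male gonad and from -0.81 to -2.20 in digestive gland. The digestive gland difference of AM229748 reversed to -0.19 with that percentile and to -0.74 with normexp; the cause was not tested. On male gonad 1, 115 of the 267 members were not detected, and on digestive gland 1, 67, which limits the size of their differences.

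The count of called members, 1 in each of the 4 comparisons with gill, became 0 with the filter on all arrays, with the deposited table, with 10 or 11 arrays and with the slide block, and for larvae also with the percentile over all probes, normexp and an adjusted p of 0.01. With the slide block and the deposited table, 0 of 1572 and 0 of 1561 sequences were called in each of these comparisons. With 10 arrays 12 to 36 of 1635 sequences were called, and with 11 arrays 0 to 5. The filter on all arrays left 8 members, and AM230099, not detected on gill, was not tested. That filter called 4 to 25 of 865 sequences over these comparisons. Leaving out 1 array at a time gave 0 to 215 called members in digestive gland, 0 to 146 in half-body samples, 0 to 1 in female gonad and 0 to 1 in larvae, each against gill. The count of all sequences beside the 215 is given above. Half-body minus gill called 0 to 229 of all sequences over the same omissions. It gave 148 called members without digestive gland arrays, against 231 of 1477 sequences (15.6%). The 3 comparisons with 0 called members gave 0 under every alternative run.

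The replicate block, fitted for gill and digestive gland alone, gave 0 called members and 0 of 1387 sequences. In limma, 79 of 191 members had an unadjusted p below 0.05, against 170 of the 1387 sequences. Same-numbered arrays deviated together with r = 0.783 between digestive gland and male gonad but 0.046 and 0.056 between either and gill, over 1637 sequences. These include members, which were picked on the male gonad difference. Over the 1233 that are not AM, r was 0.485, -0.111 and -0.117. Digestive gland 1 and male gonad 1 shared slide 1 while gill 1 was alone on slide 3. Paired samples and shared slides therefore cannot be told apart here, and the labels' numbers were not taken to pair samples.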
